A study of Mus musculus with 6 samples.

Results

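The genes described here encode the soluble glutathione transferases, the cytosolic sulfotransferases and the UDP-glucuronosyltransferases, the main conjugating enzymes of the intestine. Members were taken by name, as every gene on the array whose symbol has the form Gst followed by a class letter and a number, or Sult or Ugt followed by a family number, a subfamily letter and a member number. This gave 53 genes of 36163 gene names on the array, measured by 73 of 55681 oligonucleotides (oligos) of 60 bases. Of the 53 genes, 21 encode glutathione transferases, 17 sulfotransferases and 15 glucuronosyltransferases. After oligos near background were left out, 57 member oligos from 41 genes were tested. The study measured RNA of the jejunum of 6 male C57BL/6J mice. A group of 3 mice received VND3207, a compound known here by its code name only, into the stomach at 100 mg/kg, and 3 control mice received the same volume of vehicle. Every mouse, controls included, was irradiated with 9 Gy after 0.5 h and sampled 6 h after the radiation. The comparison is thus between irradiated mice with and without the compound, and unirradiated tissue was not analysed here.

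Conjugating enzymes attach a bulky, usually charged group to a drug, hormone, bile acid or reactive by-product, which makes it more soluble and easier to export. Glutathione transferases join the tripeptide glutathione to electrophiles, among them the aldehydes that arise when lipids are oxidised. Sulfotransferases move a sulfate group from the donor PAPS to phenols and steroids, and glucuronosyltransferases move glucuronic acid from UDP-glucuronate and sit in the membrane of the endoplasmic reticulum. In the small intestine all of them act mainly in absorptive enterocytes, where they form a first barrier to what is absorbed from food.

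Many members are recent gene duplicates, so the bases that each oligo reads decide how well a gene is told apart from its neighbour. The following stretches of 30 bases come from the oligos of similar pairs, aligned to each other, with the differing bases in capitals. For each pair the stretch with the most differences is shown.
Gsta1: tggcctctaatGgtttgcaattataaaaAG
Gsta2: tggcctctaatTgtttgcaattataaaaTA
Gstp1: cgcggcaaatatgTcaccCtCatctacaCC
Gstp2: cgcggcaaatatgGcaccAtGatctacaGA
Ugt2b37: AatttatgaGccaccttctaaacactGATT
Ugt2b5: TatttatgaAccaccttctaaacactTGAC
Over their whole overlap the Gsta1 and Gsta2 oligos shared 46 of 50 bases, 1 Gstp1 and 1 Gstp2 oligo 30 of 35, and the Ugt2b37 and Ugt2b5 oligos 46 of 55. Counted from the first base shown, Gsta1 and Gsta2 differed within the stretch shown by G12T, A29T and G30A. Values of such pairs are not independent, since transcripts of either gene may bind both oligos, and they are given as uncertain between the pair. Among the Sult2a genes, the Sult2a1 oligo shared 54 of 59 bases with that of Sult2a2 and 51 of 54 with that of Sult2a4. The 3 oligos that passed the test are shown next, from base 16 to base 45 of each.
Ugt3a1: cattctatattatacatgaatttatctaag
Ugt3a2: acccgagttagtacctcactacttttggcc
Sult2a7: taccaggagaaaatggctggtttccctata
In the mm9 build used by the files, the Ugt3a1 oligo lies at chr15:9244664-9244723 and the Ugt3a2 oligo at chr15:9300203-9300262, both on the plus strand, and the Sult2a7 oligo at chr7:15050514-15050573 on the minus strand. All 73 member accessions carried the same gene symbol in RefSeq.

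Values are log2 signals relative to the 75th percentile of the same array, so that 0 is the signal of a spot at that percentile. Differences are VND3207 minus vehicle, with the moderated standard error of limma after the ± sign and n = 3 mice in each group. P-values were adjusted by the Benjamini-Hochberg method over all 36098 oligos tested, with a threshold of 0.05. Of all oligos tested, 14.6% were called lower with VND3207 and 0.925% higher. The lower calls gathered among weak signals: 20.3% of oligos with a mean below the 75th percentile were called lower, against 4.57% of those above it. All 3 vehicle arrays were on slide 1 and all 3 VND3207 arrays on slide 2, so slide and treatment cannot be told apart in any difference given here. The split of calls also moved with the scaling, from 5258 lower and 334 higher to 3238 and 934 after quantile normalization, 3825 and 6625 after scaling to the array median, and 1945 and 2828 after each array was corrected for smooth trends with spot position, brightness and GC content. Scaling to the median moved the median difference of all oligos from -0.06 to 0.23, and the trend correction moved it to 0.13.

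Of the 57 member oligos tested, 3 were called lower with VND3207 and 0 higher by limma, and 8 (14.04%) had an unadjusted p under 0.05, beside 27.17% of all oligos. Among oligos with means above the 75th percentile, 3 of 38 members (7.895%) had such a p, beside 14.69% of all. The share of members called lower was below the 14.6% over all oligos, but most members lay above that percentile, where calls were fewer. The oligos called were those of Ugt3a1, Ugt3a2 and Sult2a7, all with means below the 75th percentile. Sult2a7 was well above background in the vehicle mice only and entered the test through them, so its call was favoured by the filter and is not counted as support. None of the 38 member oligos with means above the percentile passed, and of the 18 below it that were well above background in mice of both groups 2 did. The median difference of the members was -0.21, beside -0.06 over all oligos tested, and 46 of 57 (80.7%) lay below 0, beside 58.05% of all. The members' median itself was 0.08 after scaling to the array median. Their median minus the median of all oligos was -0.15, a value that scalings by a constant per array cannot change. It was -0.18 after quantile normalization, -0.20 with normexp background correction and -0.15 with the trend correction. All values of the VND3207 mice lay below all values of the vehicle mice for 9 member oligos, where 24.9% of all oligos did so, and above them for 1, where 9.41% of all did.

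**Figure D1:**
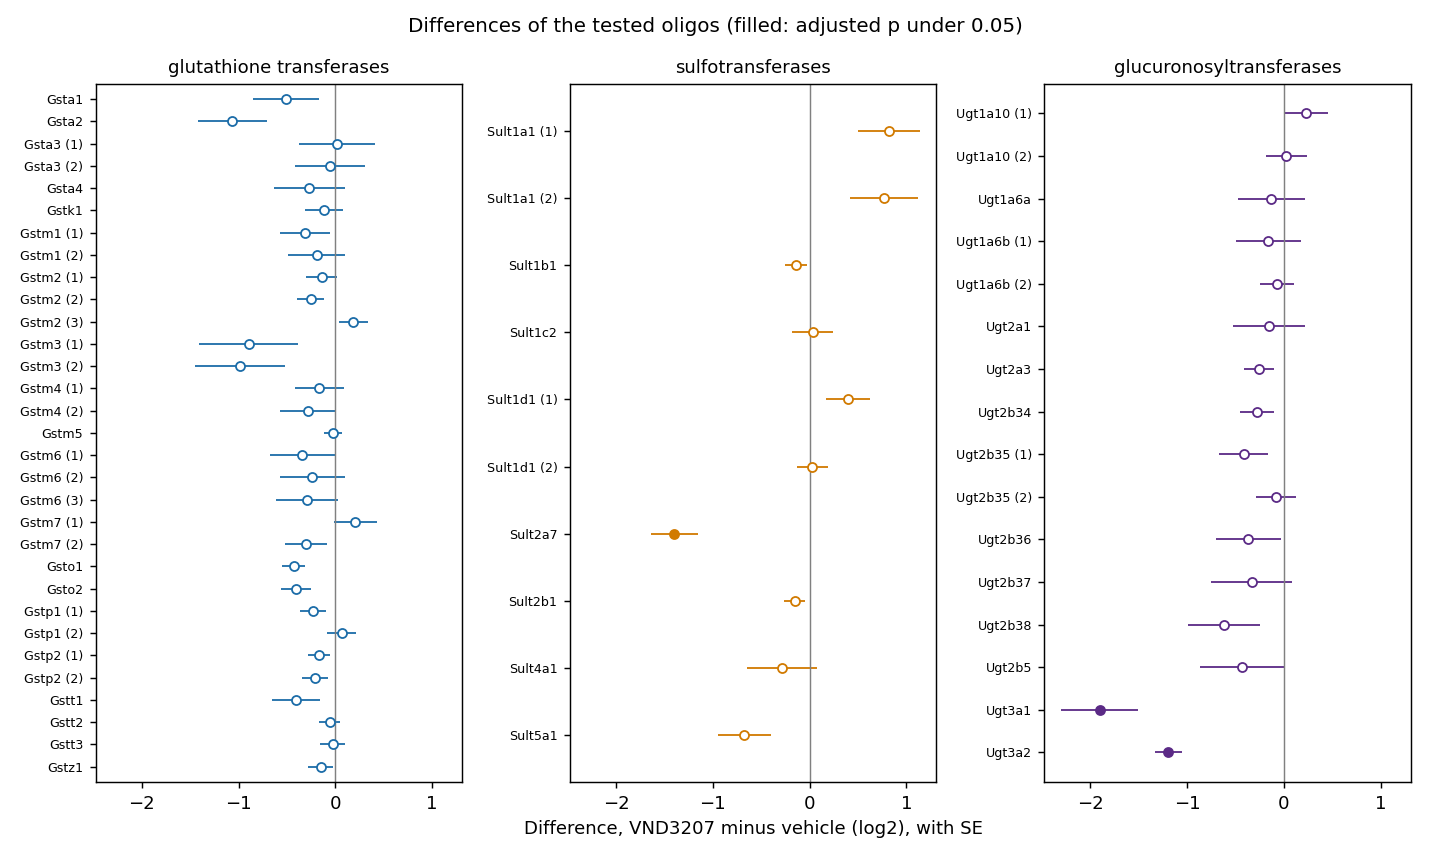
Difference between VND3207 and vehicle mice (log2, horizontal axis) for the 57 tested oligos, in panels by enzyme class. Points are differences, bars are moderated standard errors, numbers in brackets tell apart oligos of 1 gene, and filled points mark the 3 oligos with an adjusted p under 0.05 (Ugt3a1, Ugt3a2 and Sult2a7, the last kept through the vehicle mice only).

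Among the glutathione transferases, 0 of 31 tested oligos passed in either direction with limma, and 3 (9.677%) had an unadjusted p under 0.05. The share was 27.17% over all oligos, but 14.69% over those with means above the 75th percentile, where 26 of the 31 lay. Their median difference was -0.23 and 27 of 31 lay below 0. Scaled to the array median, the class median turned to 0.07. Relative to all oligos it was -0.16 on both scales, as it must be, since these scales differ only by a constant per array. After quantile normalization that relative value was -0.19, with normexp background correction -0.21 and with the trend correction -0.15. Only Gstt4 was not well above background on any array.

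The alpha class handles products of lipid oxidation. Gsta2 measured 5.70, 6.50 and 5.63 in the vehicle mice and 4.67, 4.45 and 5.52 in the VND3207 mice. The groups did not overlap, but the highest VND3207 mouse came within 0.11 of the lowest vehicle mouse. The difference was -1.06 ± 0.36 with an adjusted p of 0.110 by limma, and with 1 array left out it ranged from -1.38 to -0.79. Of these fits it passed only without VND3207 replicate 3, the mouse nearest the vehicle group, with an adjusted p of 0.0360, while the other adjusted p ran from 0.145 to 0.276. With array weights it was -1.30 with an adjusted p of 0.0450. Gsta1, whose oligo is nearly the same, measured 6.58, 7.36 and 6.48 against 6.11, 5.91 and 6.87, and these groups overlapped. Its difference was -0.51 ± 0.34, with an adjusted p of 0.410, and became -0.23 without vehicle replicate 2, -0.31 without VND3207 replicate 2 and -0.79 without VND3207 replicate 3. Gsta4, which conjugates hydroxynonenal, differed by -0.27 ± 0.36. Gsta3, which in mice detoxifies the aflatoxin epoxide, had differences of 0.02 ± 0.39 and -0.05 ± 0.36 from its 2 oligos. Replicate 1 was the highest mouse of each group for both Gsta3 oligos, unlike Gsta1, Gsta2 and Gsta4, for which vehicle replicate 2 and VND3207 replicate 3 were the highest.

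The mu class, the largest of the family on this array, conjugates epoxides and other electrophiles. Of its 15 tested oligos, 13 lay below 0, with a median of -0.25, but 5 did after scaling to the array median and 7 with the trend correction. The largest differences were those of Gstm3. Its first oligo measured 5.32, 6.16 and 4.62 in the vehicle mice and 4.46, 3.73 and 5.23 in the VND3207 mice, and its second 3.41, 4.14 and 2.53 against 2.47, 1.77 and 2.86. Both sets overlapped, and the vehicle mice alone spanned 1.54 and 1.61 log2 units. The differences were -0.90 ± 0.51 and -0.99 ± 0.46, with adjusted p of 0.333 and 0.243 by limma. Both intervals at 95% included 0, reaching from -2.13 to 0.34 and from -2.12 to 0.14. Gstm5 was the steadiest member, at 1.69 to 1.84 in all 6 mice, with a difference of -0.02 ± 0.10. The 2 oligos of Gstm7 pointed in opposite directions, at 0.21 ± 0.22 and -0.30 ± 0.21. For Gstm2, oligos at -0.14 ± 0.16 and -0.25 ± 0.14 stood beside 1 at 0.19 ± 0.15. The files place 1 of the 2 Gstm1 oligos on chromosome 5, while RefSeq has the gene on chromosome 3, so the target of that oligo is uncertain. The Gstm1 oligos differed by -0.31 ± 0.26 and, for the oligo placed on chromosome 5, -0.19 ± 0.30.

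The omega enzyme Gsto1 reduces disulfides and dehydroascorbate and was steady within each group. It measured 7.62, 7.74 and 7.48 in the vehicle mice and 7.07, 7.19 and 7.30 in the VND3207 mice, without overlap. The difference of -0.43 ± 0.12 had an adjusted p of 0.0624 by limma. It passed with the percentile taken over oligos detected on all arrays (0.0350), with a trended and robust variance model (0.0223) and with array weights (0.0396), but was at -0.17 after quantile normalization, -0.13 after scaling to the array median and -0.02 with the trend correction. Its relative Gsto2 also showed no overlap, at -3.05, -2.93 and -3.32 against -3.42, -3.71 and -3.38, with a difference of -0.40 ± 0.15 and an adjusted p of 0.152. With the trend correction Gsto2 turned to 0.35.

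For the pi enzymes Gstp1 and Gstp2, the 4 oligos stood at -0.23 ± 0.13, 0.07 ± 0.15, -0.17 ± 0.11 and -0.21 ± 0.13, and no interval at 95% reached below -0.55 or above 0.43. The 4 lay above 0 after scaling to the array median. The theta enzyme Gstt1 differed by -0.40 ± 0.25, Gstt2 by -0.06 ± 0.11 and Gstt3 by -0.03 ± 0.13. Gstk1, found in mitochondria and peroxisomes, differed by -0.12 ± 0.19, and Gstz1, the maleylacetoacetate isomerase of tyrosine breakdown, by -0.15 ± 0.13. None of these passed the test.

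The sulfotransferases were the class least often detected. Of 22 oligos 9 were not well above background on any array, and 10 from 8 genes were tested. Sult1c1, Sult2a1, Sult2a2, Sult2a3, Sult2a4 and Sult6b1 were not well above background anywhere. Sult1e1, the estrogen sulfotransferase, and Sult2a6 and Sult3a1 were so on too few arrays to be tested. The class median was -0.05, close to the -0.06 of all oligos, and 5 of 10 lay below 0.

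Sult2a7 belongs to the subfamily that sulfates bile acids and hydroxysteroids, and it was the only tested oligo of its subfamily. It measured -4.35, -3.90 and -4.54 in the vehicle mice, on all of which it was well above background. In the VND3207 mice it measured -5.86, -5.88 and -5.25 and was well above background on 0 of 3 arrays. With the main processing the signal was therefore at least 1.53-fold lower with VND3207. This takes for each VND3207 array the higher of the oligo's own signal and the lowest signal called well above background there. The mean of Sult2a7 was -4.26 in the vehicle mice and -5.66 in the VND3207 mice. The adjusted p of 0.0129 by limma belongs to an oligo that passed the filter only through the group where it was high. With normexp background correction the difference was -0.26 with an adjusted p of 0.250 by limma, and with the trend correction -0.58 with 0.143. Both differences were smaller than the bound, which therefore holds for the main processing only.

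Sult1a1, the general phenol sulfotransferase, had the largest positive differences of all members. Its first oligo measured 0.40, -0.15 and 0.65 in the vehicle mice and 1.69, 0.96 and 0.69 in the VND3207 mice, which did not overlap. The second gave 0.15, -0.43 and 0.54 against 1.47, 0.67 and 0.43, which did. The differences of 0.82 ± 0.32 and 0.77 ± 0.35 had adjusted p of 0.165 and 0.228 by limma, and these oligos overlap in sequence position, so they do not count as separate evidence. After scaling to the array median the first reached 1.11 with an adjusted p of 0.0484 by limma, where 6625 of all 36098 oligos were called higher. Without VND3207 replicate 1, the highest mouse, its difference was 0.53.

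None of the remaining sulfotransferases passed the test. Sult1b1, which sulfates phenols and thyroid hormones, measured 6.74, 6.86 and 6.74 in the vehicle mice and 6.62, 6.50 and 6.80 in the VND3207 mice, a difference of -0.14 ± 0.12 with an interval at 95% from -0.42 to 0.14. Sult2b1, which sulfates cholesterol and pregnenolone, differed by -0.15 ± 0.11. Sult1d1, active on catecholamines, differed by 0.03 ± 0.16 at 1 oligo and 0.40 ± 0.22 at the other. Sult1c2 differed by 0.03 ± 0.21. Sult4a1, known chiefly from brain, measured -1.37, -1.23 and -0.90 against -1.11, -0.97 and -2.27, with VND3207 replicate 3 the lowest, and its difference of -0.29 ± 0.36 was 0.12 without that mouse. Sult5a1 was at -3.72, -3.79 and -3.04 against -3.83, -4.16 and -4.57, without overlap, and differed by -0.67 ± 0.27 with an adjusted p of 0.178.

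Among the glucuronosyltransferases, 2 of 16 tested oligos were called lower, beside 14.6% of all oligos, and 0 higher. Both were among the 9 oligos of the class with means below the 75th percentile, where 20.3% of all oligos were called lower. The class median was -0.27 and 14 of 16 lay below 0. After scaling to the array median the class median was 0.03. Relative to all oligos it was -0.20 on both scales, which differ only by a constant per array and so must give the same value. After quantile normalization that relative value was -0.23, with normexp background correction -0.23 and with the trend correction -0.33. Ugt2b1 and Ugt8a, the enzyme that makes galactosylceramide for myelin, were not well above background on any array.

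Both calls were in the Ugt3a subfamily, whose enzymes use sugars other than glucuronic acid. Ugt3a2 measured -2.53, -2.53 and -2.44 in the vehicle mice and -3.87, -3.78 and -3.44 in the VND3207 mice. The gap between the groups was wider than the range within either. The difference was -1.20 ± 0.14 with an adjusted p of 0.00381 by limma, with the interval at 95% from -1.54 to -0.86. A second Ugt3a2 oligo, whose ends lie 10293 bases apart in the genome, was not well above background on any array. Ugt3a1 measured -3.11, -2.71 and -3.01 in the vehicle mice and -4.39, -5.78 and -4.37 in the VND3207 mice, in 2 of which it was well above background. The difference was -1.90 ± 0.40 with an adjusted p of 0.0247. Without vehicle replicate 1, 2 or 3 the adjusted p was 0.0594, 0.0955 and 0.0751. With the trend correction neither passed: Ugt3a2 was at -0.27 with an adjusted p of 0.220 and Ugt3a1 at -1.04 with 0.0844. Normexp background correction kept both calls at -0.60 and -0.66.

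**Figure D2:**
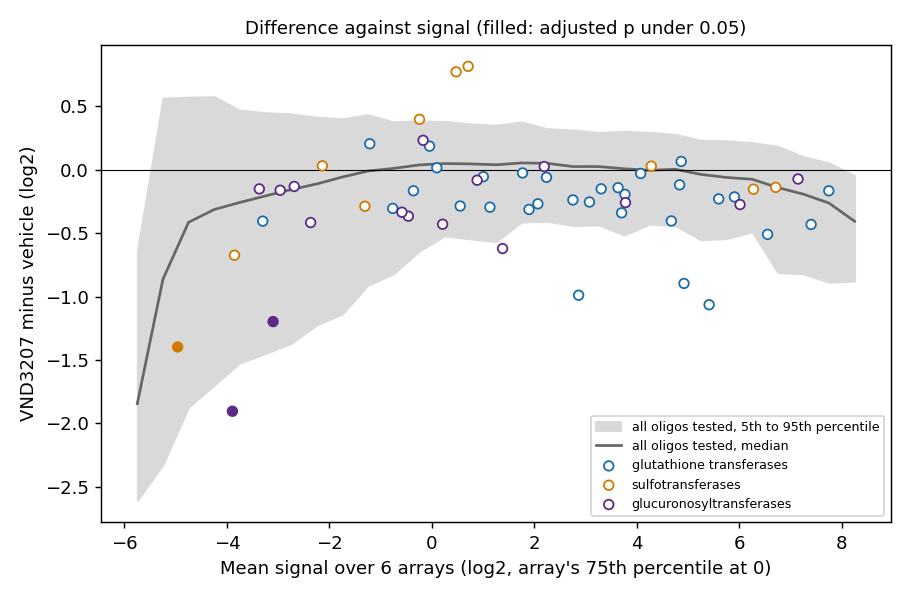
Difference between VND3207 and vehicle mice (log2, vertical axis) against the mean log2 signal over the 6 arrays, with the array's 75th percentile at 0. Grey shading spans the 5th to 95th percentile and the dark line the median of all oligos in bins of signal; circles are the 57 member oligos, filled where the adjusted p was under 0.05, and the 3 filled ones all lie at means below 0.

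The plot of difference against signal sets the members beside all oligos of like signal. Sult2a7 lay within the 5th to 95th percentile range of its neighbours, which ran from -1.87 to 0.57 in the bin centred on a mean of -4.75. Ugt3a1 lay below its range, from -1.52 to 0.47 in the bin centred on -3.75. Of the 57 member oligos, 5 lay below the 5th percentile of their bin and 3 above the 95th. Those below were Ugt3a1, Gsta2, both oligos of Gstm3 and Ugt2b38, and those above were both oligos of Sult1a1 and 1 of Sult1d1. For Gsta2 the bin centred on 5.25 had its 5th percentile at -0.55. Ugt3a2 lay within its range.

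The Ugt2 enzymes, which glucuronidate steroids and bile acids, lay below 0 with 9 of 9 oligos and a median of -0.33, against 8 of 9 after quantile normalization and 5 of 9 after scaling to the array median. In the Ugt2b subfamily 7 of 7 oligos lay below 0 with a median of -0.37, and 5 of 7 did after scaling to the array median. None of them passed the test. Ugt2b38 measured 1.31, 2.02 and 1.74 in the vehicle mice and 1.02, 0.41 and 1.78 in the VND3207 mice, a difference of -0.62 ± 0.37 with an adjusted p of 0.361. It was -0.29 without VND3207 replicate 2 and -0.98 without VND3207 replicate 3. Ugt2b5 measured 0.10, 0.76 and 0.41 against -0.06, -0.83 and 0.87, and Ugt2b37, whose oligo resembles it, -0.90, -0.0010 and -0.35 against -0.83, -1.47 and 0.04. In both, VND3207 replicate 2 was the lowest of the 6 mice and VND3207 replicate 3 the highest. Ugt2b36 differed by -0.37 ± 0.34 and Ugt2b34 by -0.27 ± 0.18. Ugt2a3 was nearly constant in the vehicle mice at 3.91, 3.90 and 3.92 and measured 3.73, 3.33 and 3.88 in the VND3207 mice. Those groups did not overlap, with a difference of -0.26 ± 0.16 and an adjusted p of 0.369. Ugt2a1, known from the olfactory epithelium, differed by -0.15 ± 0.37.

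The Ugt1a enzymes are made from 1 gene complex in which each first exon is joined to a common set of later exons. RefSeq lists 9 Ugt1a genes, 7 of which share 1 end, and 3 of the names occur on the array. An oligo in the common part would read all of the complex. The 2 oligos named Ugt1a6b lie 111.2 kb apart. The first measured -3.15, -2.22 and -3.27 in the vehicle mice and -3.33, -3.22 and -2.58 in the VND3207 mice, while the second measured 7.08, 7.42 and 7.04 against 6.91, 7.04 and 7.38. They differed by -0.16 ± 0.34 and -0.07 ± 0.17, and neither passed. The oligo named Ugt1a6a starts at 90116514 on chromosome 1, beyond the second Ugt1a6b oligo at 90115493, and differed by -0.13 ± 0.34. Which transcripts of the complex these oligos read is uncertain. The 2 Ugt1a10 oligos differed by 0.23 ± 0.22 and 0.03 ± 0.21, with intervals at 95% from -0.31 to 0.78 and from -0.48 to 0.53. After quantile normalization 0 of the 5 Ugt1a oligos lay below 0, where 3 did before.

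The members varied more between mice of 1 group than most oligos did. Their median within-group SD was 0.342, beside 0.202 over all oligos tested, and for oligos above the 75th percentile 0.288 beside 0.128. The variation had a common form. Vehicle replicate 2 was the highest vehicle mouse for 45 of 57 member oligos (78.95%, beside 36.55% of all), and VND3207 replicate 3 the highest VND3207 mouse for 47 (82.46%, beside 44.72%). Both held for 43 member oligos (75.44%), beside 20.84% of all oligos tested. VND3207 replicate 2 was the lowest VND3207 mouse for 35 (61.4%, beside 31.12%). For the 15 mu class oligos vehicle replicate 2 was the highest vehicle mouse 15 times, and for the 16 glucuronosyltransferase oligos VND3207 replicate 3 was the highest VND3207 mouse 16 times. The sulfotransferases showed the form less often, with vehicle replicate 2 the highest vehicle mouse for 4 of 10 oligos (40%) and VND3207 replicate 3 the highest VND3207 mouse for 5 (50%). Both held for 4 of them (40%, beside 20.84% of all), and VND3207 replicate 2 was the lowest VND3207 mouse for 6 (60%, beside 31.12%). In all, 14 oligos of 10 genes departed from the form: those of Gsta3, Gstp1, Gstm5, Gstz1, Sult1a1, Sult1d1, Sult4a1, Sult5a1, Ugt2a3 and Ugt3a2. These shares describe 6 mice and were not tested, and oligos of related genes share sequence.

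**Figure D3:**
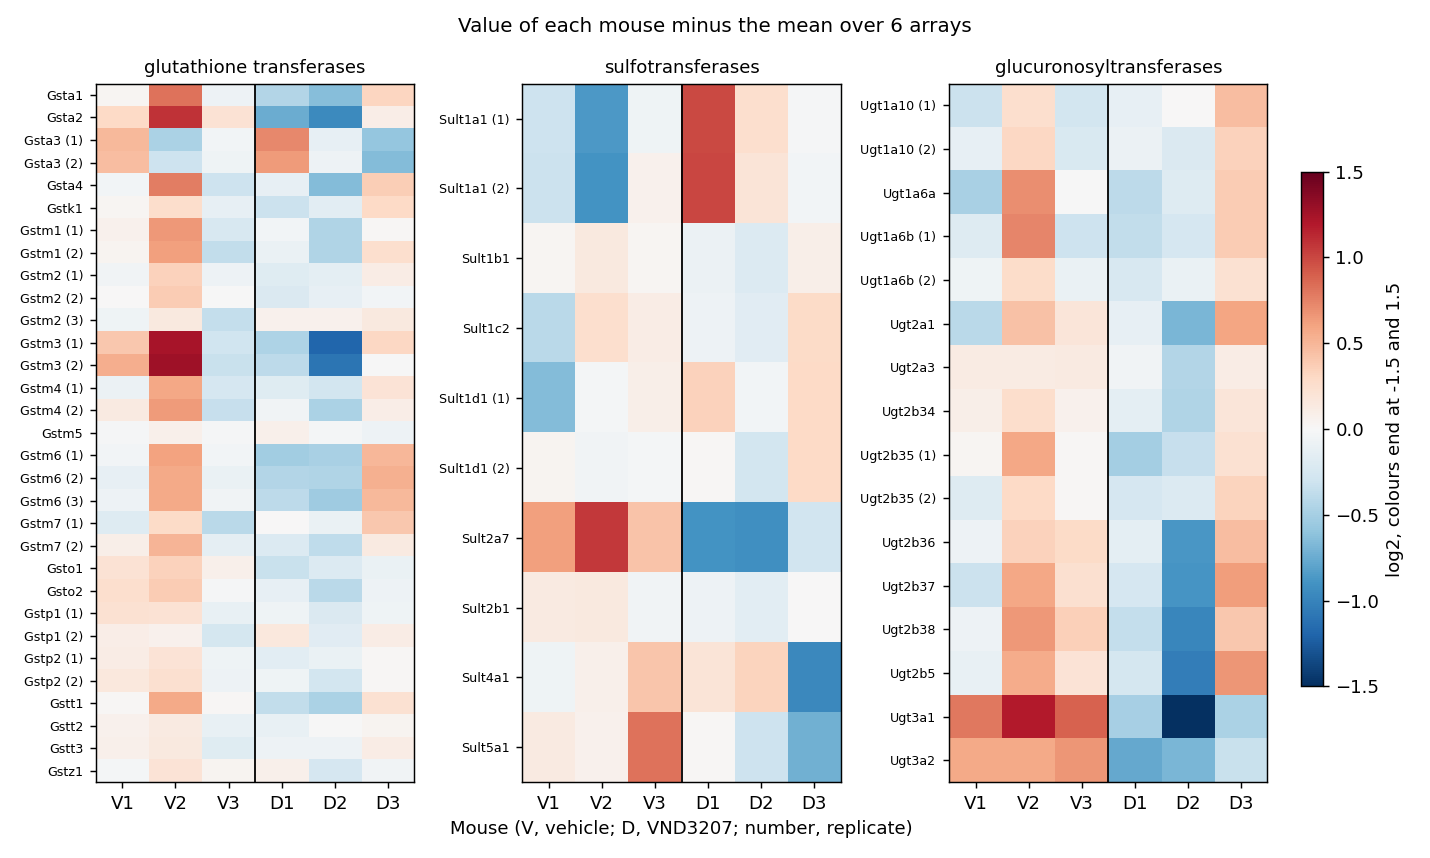
Each mouse's log2 value minus the oligo's mean over the 6 arrays, by enzyme class (rows are the 57 tested oligos, V1 to V3 the vehicle mice and D1 to D3 the VND3207 mice; red is above and blue below the mean, with colours ending at -1.5 and 1.5). Most rows are reddest in V2 among vehicle mice and in D3 among VND3207 mice, with 14 oligos as exceptions, among them those of Gsta3 and Sult1a1.

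To summarise each class by mouse, every oligo's value was set against its mean over the 6 arrays, and the median of these deviations was taken as the score. The glucuronosyltransferase score was -0.10, 0.50 and 0.10 in the vehicle mice and -0.25, -0.44 and 0.37 in the VND3207 mice. The glutathione transferase score was 0.06, 0.38 and -0.09 against -0.12, -0.27 and 0.11. The sulfotransferase score varied less, from -0.16 to 0.07. In all 3 classes the groups overlapped, so differences between mice of 1 group were as large as those between the groups.

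Several cell type markers moved between the same mice. The 12 enterocyte markers were all tested, and their score was 0.08 to 0.30 in the vehicle mice and -0.30 to -0.08 in the VND3207 mice, without overlap. Of these, 5 were called lower with VND3207, namely Fabp1, Anpep, Fabp2, Vil1 and Lct, and 0 higher. Over all oligos 14.6% were called lower, and 4.57% of those with means above the 75th percentile. In the brightest bin of all oligos, centred on 8.25, the median difference was -0.41 and the 5th to 95th percentile range -0.88 to -0.045. The differences of these 5 markers, from -0.82 for Fabp1 to -0.36 for Vil1, lay within that range. Fabp1, a fatty acid carrier of enterocytes, measured 8.82, 9.05 and 8.74 against 7.89, 8.11 and 8.15. Vehicle replicate 2 had the highest enterocyte score of its group and VND3207 replicate 3 the highest of its own. The Paneth cell score, over 8 tested markers of 10, was lowest in those same mice, at -0.49 and -0.34. Of these 8, 3 were called lower, namely Lyz1, Defa26 and Itln1, and 0 higher, around a list median of 0.06. The 3 have means above the 75th percentile, where 4.57% of all oligos were called lower. Among the VND3207 mice, Lyz1 and Itln1 were lowest in replicate 1, at 7.6 and 8.335, not in replicate 3. The adipocyte score, over 6 of 6 markers, ranged from -1.71 to 0.73 in the vehicle mice and from -1.30 to 2.85 in the VND3207 mice. It too was lowest in vehicle replicate 2 and VND3207 replicate 3. The smooth muscle score, over 8 of 8 markers, was -1.79 in VND3207 replicate 3 and 0.17 to 0.58 in the other 5 mice. Exocrine pancreas markers were tested for 7 of 10, with 3 called lower and a score of 0.20 to 1.45 in the vehicle mice against -0.67 to -0.44. The 3 were Cela3b, Cel and Cpa1, with means below the 75th percentile, where 20.3% of all oligos were called lower. In the VND3207 mice Cela3b averaged -5.32 and Cpa1 -6.43, beside -5.66 for Sult2a7, which was not well above background there. Whether Cela3b and Cpa1 likewise entered the test through the vehicle mice only was not examined. Their calls, and the exocrine pancreas score that includes both, are therefore not counted as support. Cela2a, Pnlip and Prss2 were too near background to be tested. The liver markers Alb and Fgb were also too near background, and the other 8 of 10 hepatocyte markers had a score from -0.09 to 0.20 over all mice. Gastric epithelium markers were tested for 5 of 7, with 2 called lower, beside 14.6% of all oligos, and 0 higher. Their score was 0.13 to 0.43 in the vehicle mice and -0.56 to -0.08 in the VND3207 mice. Of 8 enteric neuron and glia markers 3 were called lower and 0 higher. The part of these markers in the members' values was not tested. In such whole-tissue RNA, fewer cells of a type and less RNA per cell cannot be told apart.

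**Figure D4:**
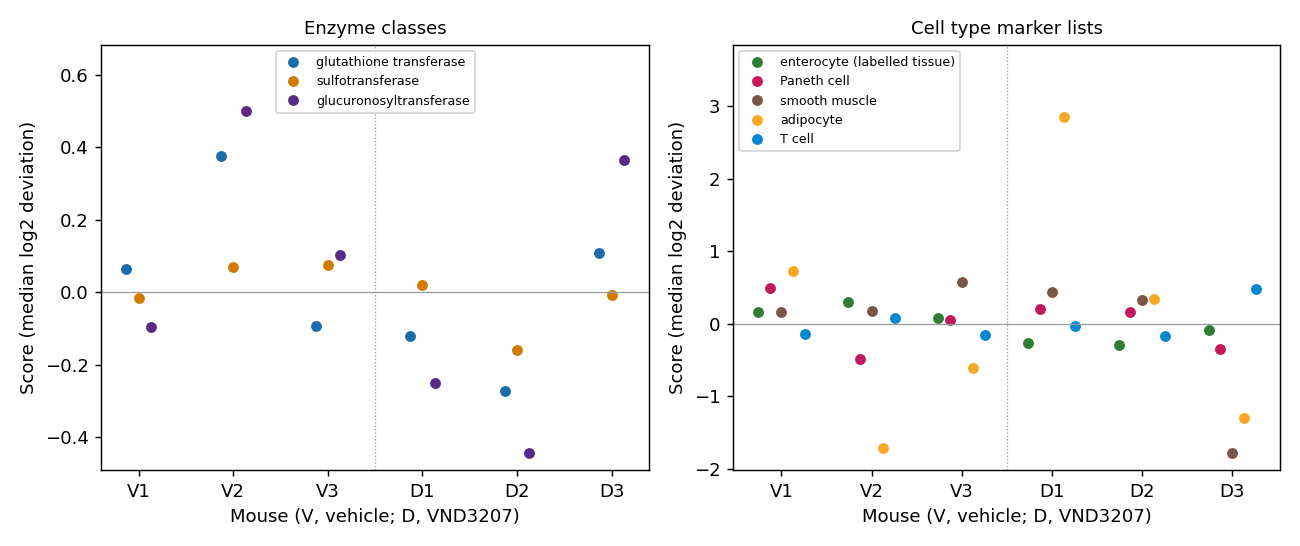
Score of each mouse (median log2 deviation from the mean over 6 arrays, vertical axis) for the 3 enzyme classes (left) and 5 cell type marker lists (right); V1 to V3 are vehicle and D1 to D3 VND3207 mice, and points are offset sideways for legibility. V2 and D3 have the highest glutathione transferase and glucuronosyltransferase scores of their groups, and D3 stands apart for smooth muscle at -1.79.

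The genes that supply these enzymes were examined from lists of 67 partner genes. Of 16 tested genes of glutathione synthesis, recycling and transport, 0 passed in either direction, with a median of 0.06. Gsr, which recycles oxidised glutathione, differed by 0.36 ± 0.22 and the dipeptidase Dpep1 by 0.16 ± 0.16. Of 6 microsomal or related glutathione enzymes 0 passed, with Mgst2 at -0.09 ± 0.14 and Ptges at 0.06 ± 0.11. Of 14 genes of sulfate donor supply and sulfate removal, 2 were called lower, beside 14.6% of all oligos, and 0 higher, around a median of 0.10. These 2 were the only calls among the 66 partner genes tested. Sts, the steroid sulfatase that reverses steroid sulfation, measured 0.88, 0.49 and 0.60 in the vehicle mice and 0.04, -0.36 and -0.26 in the VND3207 mice, a difference of -0.85 ± 0.16 with an adjusted p of 0.0168 by limma. Arsb, a lysosomal sulfatase of glycosaminoglycans, was at -3.33, -3.13 and -3.18 against -3.60, -3.75 and -3.88, a difference of -0.53 ± 0.12 with an adjusted p of 0.0340. Neither pair of groups overlapped, and with the trend correction 0 of the partner genes were called lower.

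Papss2, which makes the sulfate donor PAPS, had the mouse pattern that most glutathione transferase and glucuronosyltransferase oligos showed. It measured 6.71, 8.35 and 7.07 in the vehicle mice and 5.63, 6.32 and 7.58 in the VND3207 mice. Vehicle replicate 2 and VND3207 replicate 3 were again the highest of their groups, as for 20.84% of all oligos tested. The difference of -0.87 ± 0.62 had an adjusted p of 0.446 by limma. Of the other partners named here, Bpnt1, Ugdh and Pgm1 shared the pattern, while Dpep1, Gsr, Mgst2, Ptges, Sts, Arsb, Hnf4a and Esrra did not. Bpnt1, which clears the used donor, differed by -0.34 ± 0.14. Of 11 genes of glucuronic acid supply 0 passed, with a median of -0.09. Ugdh, which makes UDP-glucuronate, differed by -0.22 ± 0.21 and was likewise highest in those mice, at 5.51 and 5.45. Pgm1 differed by -0.24 ± 0.14. Of 19 genes of transcription factors and their partners that are known to control conjugating enzymes 0 passed, with a median of -0.01. Hnf4a, at 6.89 to 7.05 in all mice, differed by 0.01 ± 0.10 and Esrra by 0.07 ± 0.10. After scaling to the array median 17 partner genes were called higher and 1 lower, beside 6625 higher and 3825 lower of all 36098 oligos.

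Promoters of 45 member genes were present in RefSeq (GRCm38.p6), with 55 promoter windows from 250 bases before to 50 after the start. The letters TGACNNNGC, the core of the antioxidant response element, occurred on either strand in 3 windows (5.45%), those of Gsta3, Gstm5 and Gstm7, beside 12.4% of all 32851 promoters. The core of the xenobiotic response element, TNGCGTG, occurred in 2 (3.64%, beside 5.07%), and the letters GTTAAT, part of the HNF1 binding motif, in 10 (18.2%, beside 7.10%). Ugt3a1, Sult1a1 and Ugt2a3 were among those with GTTAAT. These matches describe the letters in these windows only.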

How the data were processed

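Jejunal RNA of 6 mice was measured on 6 arrays of 1 colour (Cy3), each with 62976 spots. Per the file headers, Agilent Feature Extraction 10.7.1.1 produced the files, with positions on the mm9 build, and the deposited intensity used here is its background-subtracted processed signal, not scaled between arrays. A further table deposited by the authors gives log2 values that follow the log2 scanner signals (r of at least 0.9995). Each column has a median of 6.05 and a 75th percentile of 9.41. How it was made is not given in the sources used here, and it served as an alternative only. Its differences were close to those after quantile normalization, such as -0.91 and -0.92 for Ugt3a2, so these settings are not independent alternatives. There were 0 value columns without a sample.

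Control spots and outlier spots were left out, spots of 1 oligo averaged, and the array's 75th percentile subtracted from the log2 signal. Oligos well above background on at least 3 of 6 arrays were kept. Groups were compared with limma 3.58.1 (lmFit, eBayes, group only, 2-sided) in R 4.3.3, and trends were fitted with mgcv 1.9.3. The fit was tested on simulated data with known changes. Labels number 3 samples per group, treated here as 3 mice. P-values set the group difference against a variance estimated from the spread within groups and moderated over all oligos. Each group had its own slide, so that difference also holds any slide effect. Replicate numbers did not pair the mice. Their number limits the precision, and no spot was saturated. Promoters and symbols came from RefSeq.

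The members, partner lists, markers and tests were chosen with earlier results of these data known. Named by rule were members that passed, the 5 brightest genes of each class and all their oligos, and in each partner list those that passed and the 2 brightest. Other members were named after their values were seen. Alternatives were other scalings, background corrections, filters, oligo choices, variance models, the replicate block, thresholds, trend correction and leaving out each array.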

Additional observations from a re-analysis of the deposited data

How the results depend on the processing

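Beside 3 member oligos called lower, the count was 1 when all 6 arrays had to be well above background, 5 with array weights, 0 with the trend correction and 1 at a threshold of 0.01, and ranged from 2 to 4 when 1 array was left out. Over all oligos, 5258 of 36098 were called lower in the main fit and 2921 of 30163 with all 6 arrays well above background. With array weights 5970 of 36098 were, and with the trend correction 1945. The count called higher was 1 after median scaling (Sult1a1), 1 with no filter on dim oligos (Sult2a1, not well above background on any array) and 1 with the trend correction (Gstt2, 0.42, adjusted p 0.0451 by limma), and 0 when any array was left out. Of all oligos, 6625 of 36098 were called higher after median scaling, 662 of 55681 with no filter and 2828 of 36098 with the trend correction. With the replicate number as a block, 1 member oligo was called lower and 0 higher. Same-numbered mice had deviations that correlated at 0.13, -0.11 and -0.05, and 2 of 6 mice were closest to their own number, so the numbers did not pair the mice. The slide block was not run, since each slide and scan held 1 group only.

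The glutathione transferase median was 0.069 after median scaling and -0.34 to -0.084 with 1 array left out, and the glucuronosyltransferase median -0.46 to -0.054. The sulfotransferase median was 0.046 after quantile normalization, 0.24 after median scaling, 0.044 in the deposited table, 0.49 with no filter, 0.031 and 0.030 when at least 1 or all 6 arrays had to be well above background, -0.15 with 1 oligo or the mean per gene, 0.073 with the trend correction, and -0.14 to 0.026 with 1 array left out. Partner genes called lower were 1 after quantile normalization, median scaling, normexp, in the deposited table and with no filter, and 0 with the trend correction; 17 were called higher after median scaling.

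Some named oligos that passed in neither setting changed sign. After median scaling Gstp1 was at 0.069, Gstp2 at 0.13 and 0.084, Sult1b1 at 0.16, Sult2b1 at 0.14, Sult4a1 at 0.011, Ugt1a6b at 0.23 and 0.14, Ugt2a3 at 0.040 and Ugt2b34 at 0.024. After quantile normalization Gstp2 was at 0.17, Sult1b1 at 0.035 and Ugt1a6b at 0.16 and 0.11, and in the deposited table these were 0.17, 0.032, 0.17 and 0.11. With the trend correction Gstp2 was at 0.091 and 0.089, Sult1d1 at -0.0048, Sult2b1 at 0.34 and Ugt1a6b at 0.25 and 0.52. With array weights Sult1d1 was at -0.047 and Ugt1a10 at -0.10, with the percentile over oligos detected on all arrays -0.0015 and -0.0048, and with normexp Ugt1a10 was at -0.013. With 1 array left out, the oligos that changed sign ranged from -0.21 to 0.048 and -0.39 to 0.17 for Ugt1a6b, -0.047 to 0.17 for Gstp1, -0.11 to 0.17 for Sult1d1, -0.53 to 0.12 for Sult4a1 and -0.14 to 0.19 for Ugt1a10. The cause was not tested. With VND3207, Ugt3a1 was well above background on 2 of 3 arrays and Sult2a7 on 0 of 3. On the VND3207 arrays 58.8% to 61.4% of all spots were so, beside 66.7% to 70.0% on the vehicle arrays.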
